A study of Rattus norvegicus with 12 samples.

Results

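The set described here is made of 5 enzyme genes and 5 stress genes: the serine and folate enzymes Phgdh, Psat1, Psph, Shmt2 and Mthfd2, and the integrated stress response genes Atf4, Ddit3, Trib3, Chac1 and Asns. They are 10 of 22093 genes measured on 12 Affymetrix rat arrays. The genes were named by pathway, with earlier results of these arrays known. Each was found through probe sets annotated with exactly its symbol, of which the brightest was chosen by its mean signal over all 12 arrays, a value that uses no group. Since each gene had 1 such probe set, that mean decided nothing. The RNA came from the rat liver epithelial line TRL1215, passaged weekly in William's E medium with serum. Passage-matched control cells received no added compound, and the other cells grew with PFOA (perfluorooctanoic acid, a surfactant with a fluorinated chain) for up to 38 weeks: T10 at a concentration of 10 µM, T50 at 50 µM, and T100 at 100 µM. Each of the 4 groups had 3 arrays. All groups share 1 cell line, and the labels do not say whether the replicates were separate long-term cultures, so p-values measure the spread between these samples, which may be technical. The series title speaks of tumour-like traits of rat liver cells after long PFOA exposure. The comparisons below ask whether serine synthesis and stress-response genes differed from control at each dose and between doses.

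Serine is made from the glycolytic intermediate 3-phosphoglycerate in a chain of reactions run by Phgdh, Psat1 and Psph, and mitochondrial Shmt2 and Mthfd2 pass its side carbon into the folate cycle that feeds nucleotide synthesis. In the integrated stress response, kinases that sense amino acid shortage, unfolded protein, heme shortage or double-stranded RNA phosphorylate eIF2-alpha. General translation then slows while the transcription factor ATF4 is translated more. ATF4 is known to act on genes of both groups, among them Psat1, Phgdh, Asns, Ddit3, Trib3 and Chac1.

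Values are log2 signals, 1 per probe set and array. Background was taken in each group as the mean, over its 3 arrays, of the 95th percentile of 1153 negative-control probe sets, which stood at 5.42 for control, 5.77 for T10, 5.52 for T50 and 5.65 for T100. It was exceeded in at least 1 group by 4 members (Psat1, Shmt2, Atf4 and Psph), beside 4581 of all genes (20.7%). The other 6 (Mthfd2, Phgdh, Asns, Ddit3, Trib3 and Chac1) lay below it in every group, so no fold is given for them. Their levels are bounded by background and a small difference may not reflect the full change in RNA. The 95th percentile of each array's values over genes, a measure of the top of the scale, was 9.36 to 9.48 on the T10 arrays, 9.53 to 9.61 on the controls, 9.54 to 9.62 on T50 and 9.59 to 9.74 on T100. It was thus lower on every T10 array than on every other array. Of 10 hepatocyte markers and 6 biliary and progenitor markers, 0 were above background in any group. Of 3 general epithelial markers only Krt8, a keratin of simple epithelia, was above background, and Krt18 and Cdh1 were below it. Krt8 held the same value, 19.06, on all 12 arrays, so the files carry no information on its change. Of 7 stellate cell and fibroblast markers only Col3a1 was above background, and the mean level of the 7 was 4.58 to 4.73 on the control arrays and 4.75 to 4.91 on the T100 arrays. Their median difference at T100 was -0.04 with 5 of 7 lower, and Col3a1 differed by 1.71 from control (limma adjusted p = 0.0892) and by 1.89 from T10 (0.0447). Of 6 endothelial markers only Tek was above background (mean level of the 6, 4.15 to 4.17 in control and 4.05 to 4.08 in T100), and of 7 leukocyte markers 0 were. Tek fell at T10 by 0.64 (adjusted p = 0.0258) and was 0.93 higher at T50 than at T10 (0.00286) and lower at T100 than at T50 (-0.72, 0.0130). Cd3e, below background, fell by 0.55 at T10 (0.00111) and 0.38 at T50 (0.00482) and was 0.34 higher at T100 than at T10 (0.00727). The part of these shifts in the results below was not tested.

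Promoters are shown because ATF4 targets are often recognised by a composite element in them. RefSeq promoter windows of assembly GRCr8, from 250 bases before to 50 after the annotated start, were found for all 10 genes. The C/EBP-ATF response element was searched on both strands as TGATGNAA, with N any base, and occurred in the windows of 2 members, Chac1 and Trib3, and in 3.98% of 33469 rat windows of the same length. The CCAAT box, searched on both strands as CCAAT, occurred in 5 members (Phgdh, Psat1, Mthfd2, Ddit3 and Chac1) and in 37.5% of all windows. These matches describe letters in the windows and are not measurements of binding. The stretches below run 5′ to 3′ on the gene's strand and show the matches in the gene with the largest difference and in the pair with the composite element. Capitals mark the composite element, read here on the opposite strand, in Chac1 (chr3:126795931-126796030, plus strand) and Trib3 (chr3:161275534-161275633, minus strand), and the CCAAT boxes in Psat1 (chr1:222645509-222645608, minus strand).
Chac1: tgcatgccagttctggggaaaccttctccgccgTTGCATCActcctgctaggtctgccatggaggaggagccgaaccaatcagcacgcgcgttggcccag
Trib3: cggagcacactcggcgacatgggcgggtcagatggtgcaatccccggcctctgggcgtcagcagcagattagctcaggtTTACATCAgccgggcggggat
Psat1: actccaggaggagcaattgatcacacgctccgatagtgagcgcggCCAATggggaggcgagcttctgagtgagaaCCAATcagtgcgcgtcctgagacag

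**Figure D1:**
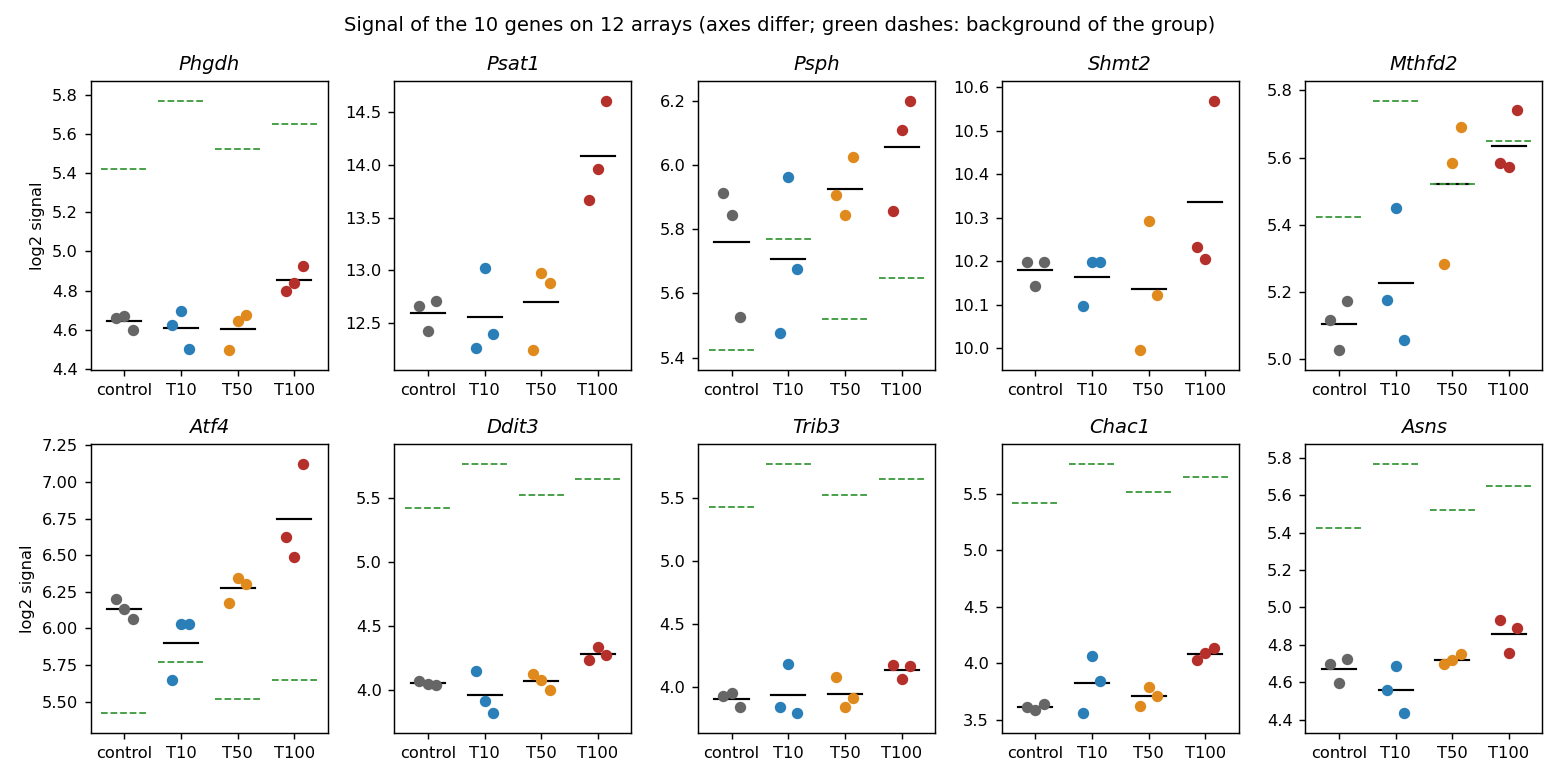
Log2 signal of each of the 10 genes (vertical axis, a different range in each panel) on the 3 arrays of control, T10, T50 and T100. Points are arrays, black bars are group means and green dashes the group's background level, drawn where it falls near the values. All 3 T100 points of Psat1 lie above the other 9, and Phgdh, Ddit3, Trib3, Chac1 and Asns lie below the dashes throughout.

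Psat1, which encodes phosphoserine aminotransferase, the transaminase of the serine pathway, was higher in cells kept at 100 µM and was the one member called against control. Its log2 signal was 12.66, 12.42 and 12.71 on the control arrays, 12.25, 13.02 and 12.39 at T10, 12.24, 12.97 and 12.88 at T50, and 13.67, 13.96 and 14.61 at T100. The 3 T100 arrays were above all 9 others, while control, T10 and T50 overlapped. Group means were 12.60 ± 0.15 (SD, n = 3) for control cells, 12.55 ± 0.41 at T10, 12.70 ± 0.40 at T50 and 14.08 ± 0.48 at T100. At T100 the gene rose by 1.49 ± 0.28 log2 units over control (SE, n = 3 and 3; 2.80-fold; limma adjusted p = 0.0363 over 22093 genes), in a comparison where 1.46% of all genes were called. The difference from control was -0.04 at T10 (95% confidence interval -0.67 to 0.59) and 0.10 at T50 (-0.53 to 0.73), and neither passed. A moderated F test for any difference among the 4 groups also called Psat1 (adjusted p = 0.0311), alone among the 10, where 3.8% of all genes were called.

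The size of that rise varied less than its call. It ranged from 1.12 to 1.69 over all settings tried. The call ended without control replicate 1, 2 or 3 (adjusted p = 0.103, 0.132 and 0.0884), without T10 replicate 3 (0.0585), T50 replicate 2 or 3 (0.0519 and 0.0527) or T100 replicate 2 or 3 (0.0810 and 0.0879), and held in the other 4 of 12 limma fits that each left out 1 array. It also ended when each array's 95th percentile was added as a covariate (1.12, adjusted p = 0.121), when only control and T100 were fitted (adjusted p = 0.0860), and without T10 replicate 1 and T100 replicate 3 together (1.22, adjusted p = 0.0892). After quantile normalization it was 1.65 with an adjusted p of 0.0154.

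**Figure D2:**
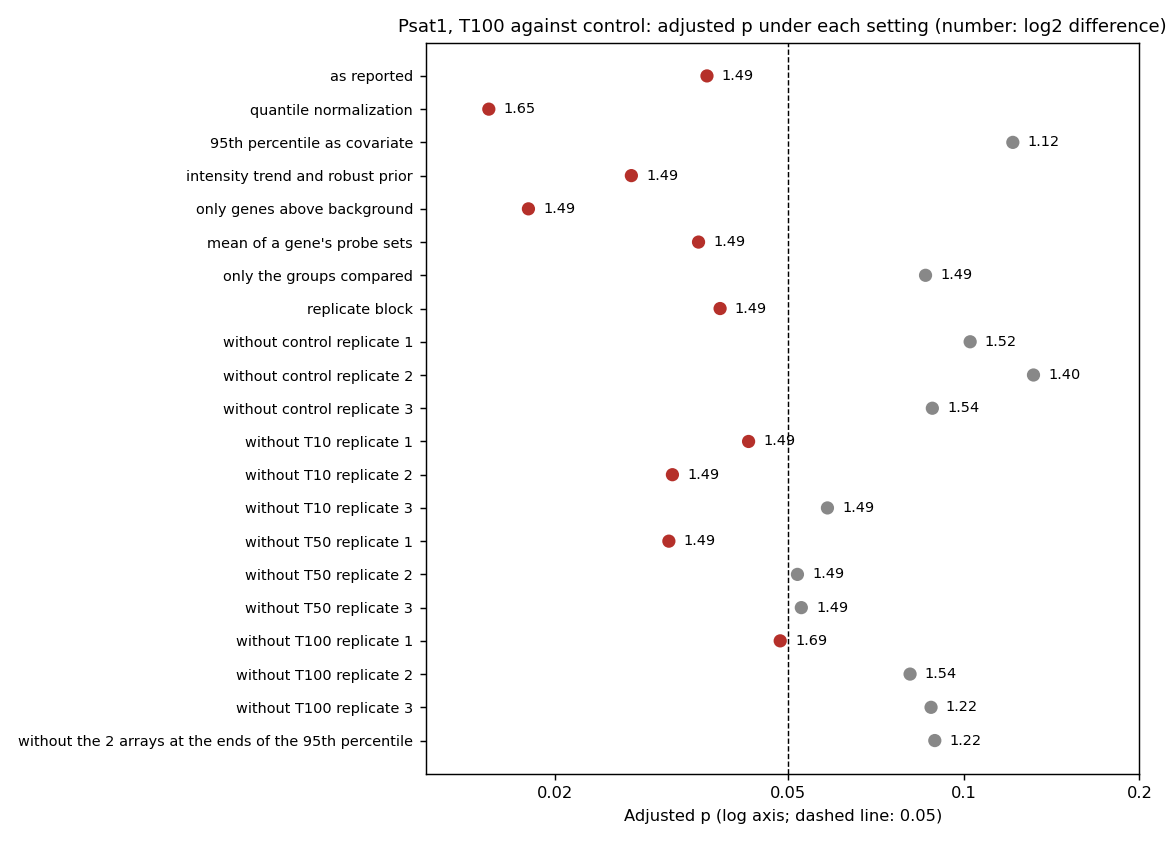
Adjusted p of Psat1 at T100 against control (horizontal log axis) under the fit as reported and each alternative (rows), with the log2 difference printed beside each point. Red points lie below 0.05 (dashed line) and grey points above it; the differences run from 1.12 to 1.69, while the adjusted p runs from 0.0154 to 0.132.

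Of the other serine and folate enzymes, 0 of 4 were called against control at any dose. Phgdh, the dehydrogenase that opens the pathway, stayed below background on all 12 arrays: 4.66, 4.67 and 4.60 in control, 4.63, 4.70 and 4.50 in T10, 4.50, 4.65 and 4.67 in T50, and 4.80, 4.84 and 4.92 in T100. The T100 arrays were the highest of the 12 here too, with a difference of 0.21 ± 0.06 (adjusted p = 0.148). Psph, the phosphatase of the last step, was at 5.91, 5.84 and 5.53 in control and 5.86, 6.11 and 6.20 in T100, and these ranges overlapped. Its T10 values of 5.48, 5.96 and 5.68 had a mean below background, and the T50 values of 5.91, 5.85 and 6.02 were within the range of the other groups. Its difference at T100 was 0.29 ± 0.14 (1.23-fold, adjusted p = 0.449). Among these 3 enzymes of the pathway the rise that passed the test was thus that of the middle one.

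Shmt2, the mitochondrial enzyme that splits serine into glycine and a folate-bound carbon, was well above background. It read 10.20, 10.14 and 10.20 in control, 10.10, 10.20 and 10.20 in T10, 9.99, 10.29 and 10.12 in T50, and 10.23, 10.20 and 10.57 in T100. The value was identical to 4 decimals on 4 of these arrays (control replicates 1 and 3, T10 replicates 2 and 3), so small differences can be hidden. At T100 it differed from control by 0.16 ± 0.10 (95% confidence interval -0.06 to 0.38, adjusted p = 0.593), and by 0.04 without T100 replicate 3.

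Mthfd2, a dehydrogenase and cyclohydrolase of the mitochondrial folate cycle, was the member whose arrays cleared the controls at both T50 and T100. It read 5.12, 5.03 and 5.17 in control, 5.18, 5.45 and 5.06 in T10, 5.28, 5.58 and 5.69 in T50, and 5.58, 5.57 and 5.74 in T100. All 3 T50 and all 3 T100 arrays were above all 3 controls, and T10 overlapped them. The differences were 0.12 ± 0.12 at T10, 0.42 ± 0.12 at T50 (adjusted p = 0.172) and 0.53 ± 0.12 at T100 (adjusted p = 0.0671), and none passed, though T100 did without T10 replicate 2 or without T50 replicate 1. Only 4 of the 12 arrays were above their own background.

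Atf4, the transcription factor at the centre of the stress response, was lowest in T10 and highest in T100. Its signal was 6.20, 6.13 and 6.07 in control, 5.65, 6.03 and 6.03 in T10, 6.17, 6.35 and 6.30 in T50, and 6.63, 6.49 and 7.13 in T100. All 3 T10 arrays lay below the controls and all 3 T100 arrays above every other array. Against control the difference was -0.23 ± 0.16 at T10 (adjusted p = 0.594), 0.14 ± 0.16 at T50 (0.835) and 0.61 ± 0.16 at T100 (1.53-fold, adjusted p = 0.0982), and none passed limma's test. Since ATF4 is controlled largely through translation, its RNA level does not measure the protein.

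The 4 remaining stress genes were below background on all 12 arrays, and none was called against control. Chac1, a glutathione-degrading enzyme, read 3.61, 3.58 and 3.64 in control, 3.56, 4.06 and 3.85 in T10, 3.63, 3.79 and 3.71 in T50, and 4.03, 4.09 and 4.14 in T100, a difference at T100 of 0.47 ± 0.10 (adjusted p = 0.0607), which passed without T10 replicate 1 or without T10 replicate 2. The T100 arrays cleared the controls and T50, but T10 replicate 2 lay among them. Asns, asparagine synthetase, read 4.69, 4.59 and 4.72 in control, 4.56, 4.68 and 4.44 in T10, 4.70, 4.72 and 4.75 in T50, and 4.93, 4.75 and 4.89 in T100, where the difference was 0.19 ± 0.07 (adjusted p = 0.256). Its T100 values were the highest of the 12.

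Ddit3, which encodes the transcription factor CHOP of the cell death arm, read 4.07, 4.04 and 4.04 in control, 4.14, 3.91 and 3.82 in T10, 4.12, 4.07 and 4.0 in T50, and 4.23, 4.33 and 4.27 in T100. Again the T100 values were the highest, with a difference of 0.23 ± 0.07 (adjusted p = 0.189), called only without T10 replicate 1 among the fits that left out 1 array. Trib3, a pseudokinase that binds AKT and ATF4, read 3.93, 3.96 and 3.85 in control, 3.85, 4.18 and 3.80 in T10, 4.08, 3.85 and 3.91 in T50, and 4.18, 4.06 and 4.17 in T100, a difference of 0.23 ± 0.10 (adjusted p = 0.380). T10 replicate 2 was its highest array. The negative controls had a median of 3.81 to 3.82 on the control arrays and 3.78 to 3.81 on the T100 arrays, and a 95th percentile of 5.36 to 5.52 and 5.48 to 5.82. Whether that upper level bears on the differences of the dim genes was not tested.

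Across the 10 genes the contrast with control differed by dose in count and in size. At T100 all 10 had a positive difference (median 0.26, against 0.00 over all genes and 0.05 over the 4581 genes above background), and 9 had all 3 arrays above all 3 controls, with Psph as the exception; 10.7% of all genes had such a pattern. At T50 the median was 0.07, with 8 higher and 2 lower, 1 not overlapping upwards (Mthfd2) where 9.75% of all genes did so, and 0 called where 1.31% of all genes were. At T10 the median was -0.04, with 3 higher and 7 lower, 1 not overlapping downwards (Atf4) where 10.6% of all genes did so, and 0 called where 0.869% of all genes were. By unadjusted p under 0.05 from limma, 8 members passed at T100, 1 at T50 and 0 at T10, where 12.4%, 10.5% and 12.6% of all genes did. After quantile normalization the split at T10 was 7 higher and 3 lower, so no direction is given for that dose, while at T100 all 10 remained higher.

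**Figure D3:**
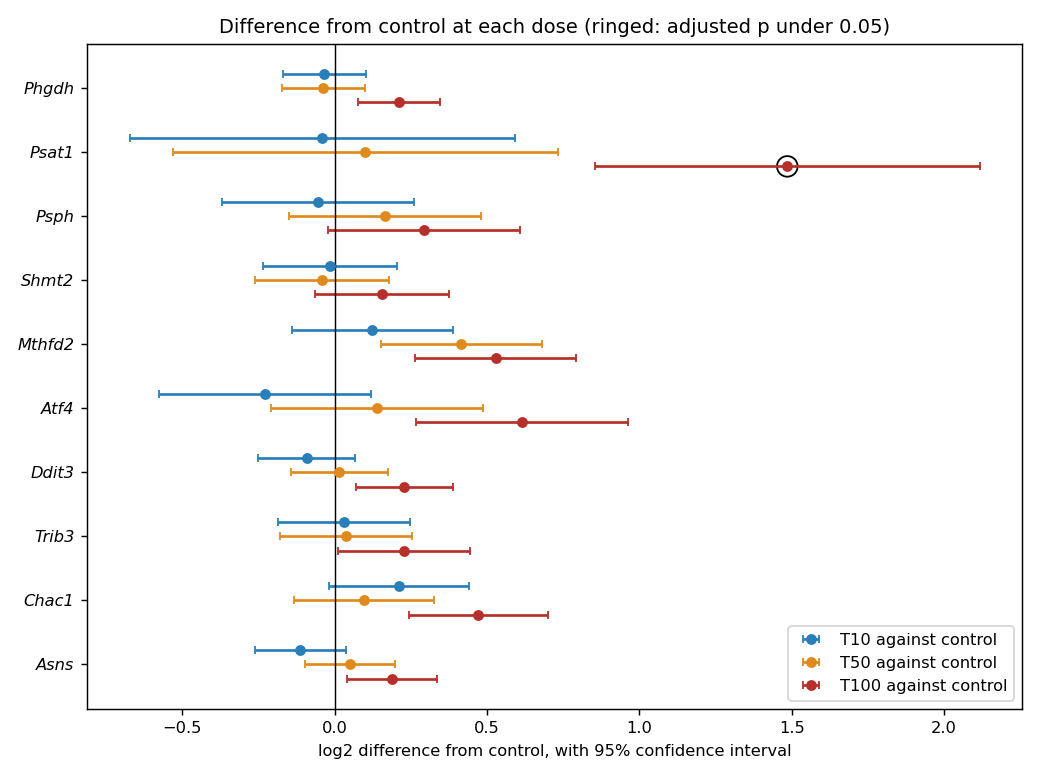
Log2 difference from control (horizontal axis) of each of the 10 genes at T10, T50 and T100, with 95% confidence intervals from limma (n = 3 arrays in each group). Psat1 at T100 (1.49) is ringed as the one difference with an adjusted p under 0.05; all 10 T100 points lie to the right of 0.

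Between doses, T100 against T10 gave 4 called members, all higher at T100, in a comparison where 3.08% of all genes were called and 2.73% were called higher. Of the 4581 genes above background, 81.8% had a positive difference (median 0.15) and 434 were called higher. That split over all genes, 604 higher and 77 lower, became 136 and 213 after quantile normalization and 0 and 3 with the 95th-percentile covariate. In these 2 settings 9 and 6 of the 10 members had a positive difference. So had 52.5% and 51.5% of all genes, and 39.8% and 45.6% of genes above background. Psat1 differed by 1.53 ± 0.28 (2.88-fold, adjusted p = 0.0246) and Atf4 by 0.84 ± 0.16 (1.79-fold, adjusted p = 0.0244). The Atf4 mean at T10 (5.90) was near the T10 background of 5.77, and T10 replicate 1 lay below its own array's background. That fold may thus be limited by background. Ddit3 (0.32 ± 0.07, adjusted p = 0.0453) and Asns (0.30 ± 0.07, adjusted p = 0.0434), both below background, were the others. In 7 members all 3 T100 arrays were above all 3 T10 arrays, as in 14.1% of all genes. The 95th percentile of the arrays did not overlap between these groups either, and with it as a covariate 0 members were called, Psat1 differing by 0.51 (adjusted p = 0.859) and Atf4 by 0.06 (adjusted p = 0.970); whether it bears on the result was not tested, since it moves with the groups. Quantile normalization left Psat1 (1.49, adjusted p = 0.0334) and Atf4 (0.67, adjusted p = 0.0333) called and not Ddit3 (0.0677) or Asns (0.212). The replicate block likewise kept Psat1 and Atf4 and ended Ddit3 (0.0534) and Asns (0.0838).

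Single arrays also moved these calls. Atf4 was called in 11 of 12 limma fits that left out 1 array, and lost its call without T10 replicate 1 (adjusted p = 0.0783). Psat1 was called in 9, and lost its call without T10 replicate 1 (0.0892), T10 replicate 3 (0.0745) or T100 replicate 3 (0.0697). Ddit3 was called in 1 of 12, without T10 replicate 1, with adjusted p of up to 0.125 in the others (without T100 replicate 3). Asns was called in 2 of 12, without T10 replicate 2 or T100 replicate 2, with up to 0.136 without T100 replicate 3. Without T10 replicate 2 alone 7 of the 10 were called (Phgdh, Psat1, Mthfd2, Atf4, Trib3, Chac1 and Asns), where 3.53% of all genes were, and 3 without T50 replicate 1 (Phgdh, Psat1 and Atf4), where 2.68% were. Without T10 replicate 1 and T100 replicate 3 together Atf4 and Ddit3 were called, and Psat1 was not (1.11, adjusted p = 0.167).

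T100 against T50 called 0 of the 10, where 1.16% of all genes were called, though 5 had an unadjusted p under 0.05 in limma, as had 11% of all genes. All 10 were higher at T100 (median 0.21), 6 of them without overlap, as were 7.78% of all genes. Psat1 differed by 1.39 ± 0.28 with an adjusted p of 0.0551, which fell to 0.0469 after quantile normalization and to 0.0442 without T10 replicate 2. T50 against T10 also called 0 members, where 2.01% of all genes were called; 2 (Atf4 and Asns) had all 3 T50 arrays above T10, as had 12.1% of all genes, and 3 had an unadjusted p under 0.05 in limma, as had 14.5% of all genes. All comparisons with control share the same 3 control arrays.

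Other genes of the same pathways were taken from further lists. Of 25 further serine, glycine and folate genes measured, 0 were called against control at any dose. Their median differences were -0.04, 0.03 and 0.05 at T10, T50 and T100, close to those of all genes. The smallest p-values were those of Tyms, thymidylate synthase (8.68 in control, 8.34, 8.30 and 8.39 at rising dose, adjusted p = 0.0826 at T50), and Shmt1, the cytosolic counterpart of Shmt2 (-0.23 ± 0.05 at T10, adjusted p = 0.0937). After quantile normalization 1 gene of this list was called lower at T50 and 1 at T100, where 2.07% and 2.36% of all genes were called.

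Of 17 kinases and regulators of the integrated stress response, 0 were called against control either. The kinase genes Eif2ak3 (PERK, 4.70 in control and 4.75 in T100) and Eif2ak4 (GCN2, 4.91 and 4.95) were below background, as was the stress-induced factor Atf3 (3.85 and 3.86). The kinase genes Eif2ak1 (8.55 and 8.47) and Eif2ak2 were above background. Eif2ak2 was at 7.04 in control and at 6.55, 6.65 and 6.61 at rising dose, lower at each dose but not called. All of these genes were named after their values were seen. Impact, an inhibitor of GCN2 activation, had the smallest p-value of the list, with mean signals of 7.96 in control, 8.0 at T10, 7.62 at T50 and 8.55 at T100, and 0.58 ± 0.13 at T100 (adjusted p = 0.0629), and it was called by the F test (adjusted p = 0.0162). Impact was also the one gene of the list called by limma at T100 against T50 (0.92 ± 0.13, adjusted p = 0.00968). Nfe2l2, the NRF2 factor that PERK can phosphorylate, was at -0.17 ± 0.04 at T50 (adjusted p = 0.0880). It was above background only in control and T50, and its T50 mean of 5.57 was near the background of 5.52. The median differences of the 17 at T10, T50 and T100 were -0.07, -0.01 and 0.01. After quantile normalization the median at T10 was 0.00. At T100 it was -0.02, where 1 rose and 1 fell and 2.36% of all genes were called.

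Among 37 other genes known as ATF4 targets, 0 rose and 1 fell at T100, Ndrg1, a growth-arrest gene that also answers to hypoxia (8.26 in control and 7.23 in T100; -1.02 ± 0.14, adjusted p = 0.0110). That call held in all 12 fits that left out 1 array and under each scaling. At T10 the death receptor gene Tnfrsf10b fell by 0.30 (± 0.05, adjusted p = 0.0368), below background in every group; its call ended after quantile normalization (0.0768), with the covariate (0.339), and in 10 of the 12 fits without 1 array, those without each control (0.134, 0.130 and 0.0584 without replicates 1, 2 and 3), each T10 array (0.0548, 0.0806 and 0.114), each T50 array (0.0607, 0.0631 and 0.0585) and T100 replicate 2 (0.0580). The largest positive differences of the list at T100 were not called: Slc7a5, the large neutral amino acid transporter, 1.09 ± 0.33 (adjusted p = 0.167), Aldh18a1, which starts proline synthesis, 0.82 ± 0.29 (0.250), and Slc1a4, a serine and alanine transporter, 0.72 ± 0.23 (0.20), each named after its value was seen. The list's median at T100 was 0.08, with 26 of 37 higher (70.3%, against 51.9% of all genes) and 11 lower, and 13 had all 3 arrays above the controls, as had 10.7% of all genes.

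Cytosolic aminoacyl-tRNA synthetases, which charge tRNAs with amino acids and include many ATF4 targets, had a median of 0.22 at T100, with 16 of 18 higher (88.9%, against 61.8% of genes above background). All 18 were above background, and 9 were higher without overlap. Of all genes, most of them below background, 10.7% had that pattern, and the share among genes above background was not computed. One rose, Tars1, threonyl-tRNA synthetase, from 8.14 in control to 8.60 in T100 (0.46 ± 0.08, adjusted p = 0.0285), and 17 did not pass. Its call ended without each control (adjusted p of 0.0759, 0.108 and 0.0748 without replicates 1, 2 and 3), without each T100 array (0.0609, 0.0667 and 0.0844), with the replicate block (0.0640) and with the covariate (0.108). At T10 17 of the 18 were lower (median -0.15), as were 75.2% of genes above background (median -0.09), but after quantile normalization 12 of 18 were higher at that dose. At T100 the median of the 18 was 0.17 after quantile normalization and 0.11 with the covariate, where 10 were higher and 8 lower. Against T10, 5 were called higher at T100 (Farsb, Nars1, Rars1, Sars1 and Tars1, named after their values were seen), and 0 after quantile normalization. Of the 4581 genes above background, 434 were called higher in that comparison, and 81 after quantile normalization.

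The chaperone and XBP1/ATF6 arm of the endoplasmic reticulum response, taken as a neighbouring pathway, had 0 of 19 genes called at T100 (median 0.05), or 2 higher after quantile normalization. Of all genes, 1.46% were called at that dose as reported, and 2.36% after the normalization. Edem1, which helps clear misfolded glycoproteins, rose at T50 (7.58 in control and 8.36 in T50; 0.78 ± 0.12, adjusted p = 0.0175), though not without control replicate 1, 2 or 3 (0.0614, 0.0722 and 0.0681) or T50 replicate 2 (0.0657). At T50 the list had 1 of 19 called, 12 higher and 3 lower. After quantile normalization it had 4 called, 17 higher and 2 lower. Of all genes, 1.31% were called at T50 as reported and 2.07% after that normalization. Of genes above background, 50.9% and 61.5% were higher. The major chaperone genes Hspa5, Hsp90b1, Calr and Canx were named after their values were seen. Each held 1 value on all 12 arrays, so the files carry no information on their change. Quantile normalization still gave every gene of the list a sign at T50 and T100, these included. Its counts of higher and called genes may thus hold differences made by the rescaling.

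**Figure D4:**
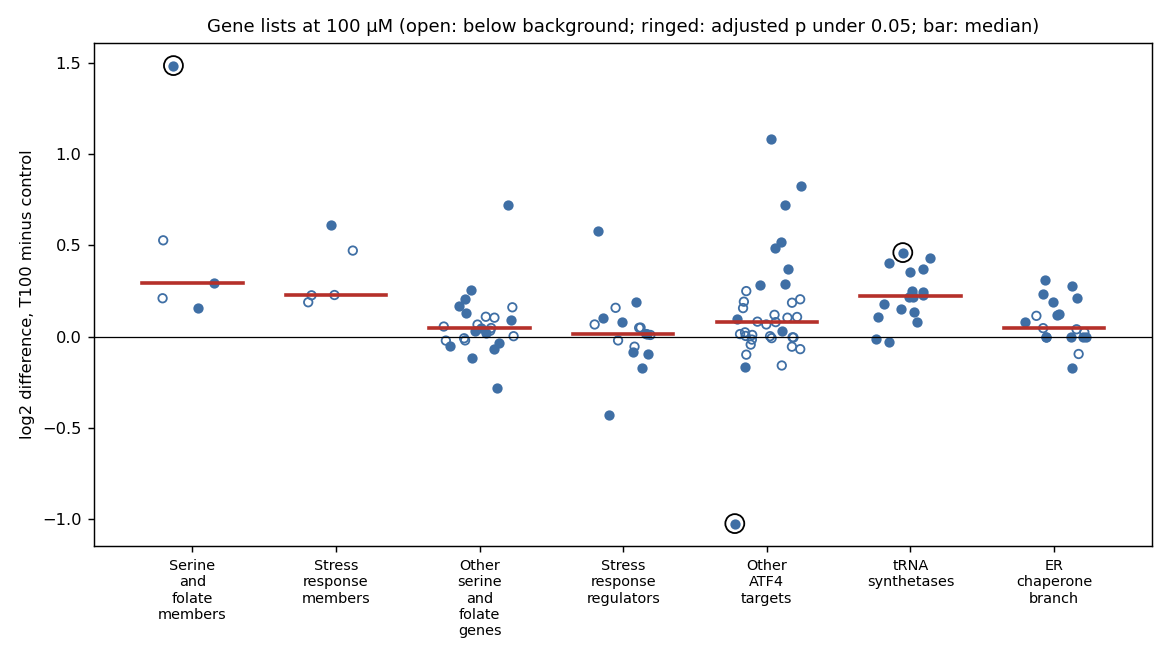
Log2 difference between T100 and control (vertical axis) for the members, split into their 2 groups, and for 5 further gene lists. Filled points are genes above background in at least 1 group, open points are below it, rings mark an adjusted p under 0.05 and bars mark the median of each list (0.29, 0.23, 0.05, 0.01, 0.08, 0.22 and 0.05 from left to right).

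Psat1 was the member above background with the widest range of group means (1.53 log2 units). Of 3729 genes searched, the 4 whose signal followed it most closely over the 12 arrays were Fzd2, a Wnt receptor (Pearson r = 0.97, Spearman rho = 0.92), Ints9, a subunit of the Integrator complex (0.95 and 0.88), Eif4enif1, a shuttle protein of the cap-binding factor eIF4E (0.95 and 0.94), and Aldh18a1 (0.95 and 0.93). These values rank likeness among genes chosen for it and carry no test; the 12 arrays share 4 groups and their scale. The mean signal of Fzd2 was 13.82 in control and 15.22 in T100, that of Ints9 7.07 and 7.36, and that of Eif4enif1 6.17 and 6.47.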

How the data were processed

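RNA of the rat liver line TRL1215 was measured on 12 arrays, 3 for each of 4 groups. The deposited values are log2 signals, 1 per probe set and array; the log base was inferred from their range (2.87 to 19.93), and the background correction, summary and normalization are not given in the sources used here. Per the labels, 100 ng of RNA was amplified with the WT Plus kit.

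Of 70580 probe sets, 23446 carried 1 symbol, and 22077 of those matched the rat gene table by Entrez number. The brightest probe set per symbol left 22093 genes. Differences were fitted in R 4.3.3 with limma 3.58.1 (4 group means, lmFit, eBayes, no block; prior degrees of freedom 1.71), two-sided, with Benjamini-Hochberg adjustment over all genes and calls at an adjusted p under 0.05. On simulated data, with changes planted only in genes above background, the fit recovered 93% of changes of 1 log2 unit and 61% of 0.5 at T100. Of the genes called there 6.1% were false. These rates do not cover the members below background. Precision is limited by the 3 arrays per group.

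The members and gene lists were chosen with earlier results of these data known. Named genes were all members, up to 4 called genes per further list (or the 2 with the smallest p), and the 4 genes most correlated with 1 member; others are said to be named after their values were seen. Shared replicate numbers were not taken as pairs: 3 of 18 same-numbered pairs correlated above 0.1 (range -0.299 to 0.22). Alternatives were quantile normalization of the whole table, a 95th-percentile covariate, a trended robust prior, genes above background only, the mean of a gene's probe sets, only the groups compared, the replicate block and each array left out.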

Additional observations from a re-analysis of the deposited data

Results flagged for a closer look

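For 4 genes the level differed between the effects of 2 doses, by the direct limma comparison of T100 with T10. They were Psat1 (1.53 log2 units higher at T100), Atf4 (0.84 higher, near background at T10), Ddit3 (0.32 higher, below background) and Asns (0.30 higher, below background). The arrays of these 2 groups also differed in the 95th percentile of their values, as given above, and the part of that difference in the result was not tested.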

How the results depend on the processing

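The count of members called against control stayed at 0 for T10 and T50 under every alternative, and for T50 against T10 as well. The mean of a gene's probe sets could not change a member's values, since each member had 1 probe set. Leaving out an array of a group not compared could move the p-value but not the difference. For T100 against control the count of 1 became 0 with the 95th-percentile covariate, and 2 with the trended robust prior (Psat1 and Chac1), with only genes above background (Psat1 and Atf4), or without T10 replicate 1 and T100 replicate 3, the arrays with the lowest and highest 95th percentile (Atf4 and Chac1), an alternative chosen after seeing the data; with only the groups compared the called gene was Chac1 in place of Psat1. Leaving out single arrays gave 0 to 3. For T100 against T10 the count of 4 became 0 with the covariate or only the groups compared. It became 2 after quantile normalization, with the replicate block, or without the 2 end arrays (1 to 7 without single arrays). With only genes above background it was also 2, but Ddit3 and Asns lay below background and were not tested there. Psat1 (adjusted p = 0.0112) and Atf4 (0.0110) kept their calls in that limma fit, which held 4 of the 10 members. For T100 against T50 the 0 became 1 (Psat1) after quantile normalization, with the trended prior or with only genes above background (0 to 1 without single arrays). For the F test the 1 became 0 with the covariate, 2 with the trended prior or only genes above background, and 3 without the 2 end arrays (0 to 3 without single arrays). With only genes above background, 9.69%, 21.4% and 6.02% of the genes tested were called at T100 against control, T10 and T50. By the F test 21.8% were. As reported, these shares were 1.46%, 3.08%, 1.16% and 3.8% of all genes. With the trended prior they were 1.34%, 2.52%, 1.14% and 3.52%. The replicate block changed no other member's call. The cause of these moves was not tested, but fewer genes or fewer arrays were fitted where the setting says so.

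Signs turned only for differences that were not called. At T10 against control, quantile normalization gave Phgdh 0.0095, Psat1 0.16, Psph 0.037 and Shmt2 0.16, the covariate gave 0.05, 0.61, 0.25 and 0.25, with Atf4 at 0.27, and the fit without the 2 end arrays gave Psat1 0.11, Psph 0.059 and Shmt2 0.018. Shmt2 at T50 was 0.076 after quantile normalization. Its deposited value was identical on control replicates 1 and 3 and T10 replicates 2 and 3. Its signs after that normalization may thus hold differences made by the rescaling. At T100 against T10, Shmt2 was -0.063 after quantile normalization and -0.25 with the covariate, which also gave Psph -0.13, Trib3 -0.033 and Chac1 -0.10. Without single arrays the T10 differences ran from -0.078 to 0.019 for Phgdh, -0.27 to 0.11 for Psat1, -0.18 to 0.059 for Psph, -0.034 to 0.018 for Shmt2 and -0.090 to 0.10 for Trib3. At T50 they ran from -0.072 to 0.017 for Phgdh, -0.037 to 0.33 for Psat1, -0.12 to 0.028 for Shmt2, -0.014 to 0.047 for Ddit3 and -0.031 to 0.088 for Trib3. The difference at T100 against control was positive for every member tested under each alternative.

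Over all genes, the calls against control at T10, T50 and T100 were 192, 289 and 323, against 241, 457 and 521 after quantile normalization, 15, 386 and 252 with the covariate, 31, 110 and 93 with only the groups compared, and 67 to 214, 117 to 278 and 89 to 345 without single arrays; without the 2 end arrays T10 gave 79 and T100 199. At T100 the split was 208 higher and 115 lower, or 261 and 260 after quantile normalization and 94 and 158 with the covariate; at T10 it was 34 and 158, or 120 and 121, and 8 and 7. For T100 against T10 the 681 calls became 349 after quantile normalization, 3 with the covariate, 52 with only these groups and 95 without the 2 end arrays. For T50 against T10 the 443 became 253, 49, 55 and 202, and for T100 against T50 the 256 became 146 with the covariate, 47 with only these groups and 127 without the 2 end arrays. The F test's 840 became 458 with the covariate and 438 without the 2 end arrays. Without single arrays these 4 counts ran from 246 to 780, 191 to 431, 114 to 265 and 507 to 866. Signal below background limits 6 of the 10 members, and at T10 the mean of Atf4 was near it and that of Psph below it.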
